A study of Homo sapiens with 72 samples.

Results

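NF-kB is a family of dimeric transcription factors, and the transcripts described here are those of its 5 subunits (NFKB1, NFKB2, REL, RELA and RELB) together with 5 genes whose products restrain the pathway or are switched on by it (NFKBIA, NFKBIE, NFKBIZ, TNFAIP3 and BIRC3). These 10 genes were chosen by name among the 30142 gene names on the array, and every non-control probe bearing one of the names was used. They have 11 probes of 41000, 2 of them for TNFAIP3, and all 11 passed the filter on dim probes that left 25238. IMR-90 cells, an established line of normal human lung fibroblasts, were grown on dishes with a thin Mylar base holding an inner dish with a base of thicker Mylar strips. Helium ions of alpha-particle energy gave the outer dish 50 cGy (irradiated) and were stopped by the inner base, so that the inner cells were not hit themselves but shared medium with irradiated cells and, per the methods, lay in a continuous layer in contact with them (bystander); sham-handled dishes received 0 cGy (control). Total RNA was collected at 6 times, the earliest 0.5 h and the others 1, 2, 4, 6 and 24 h after exposure, in 4 experiments, each group of an experiment coming from 1 pool of cells, which gave 72 single-colour arrays with 4 in each of 18 groups. All groups share the cell line and the medium, irradiated and bystander cells grew on different bases, and what is known of them holds for this 1 line.

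In resting cells the NF-kB dimers are held in the cytoplasm by IkB proteins, of which NFKBIA encodes the best known. Signals such as interleukin-1 or tumour necrosis factor activate a kinase complex that marks the IkB protein for destruction, the dimer enters the nucleus, and among its early targets are NFKBIA and TNFAIP3, which close the loop. RELA and NFKB1 form the classical dimer, RELB and NFKB2 serve the slower alternative arm, and REL is best known from lymphocytes. The pathway is a main route to cytokine and chemokine transcription in fibroblasts.

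The stretches upstream of the start site of the RefSeq window that hold the NF-kB consensus letters are shown because 6 of the 8 members with such a window in the table (GRCh38.p14; 250 bases before to 50 after the start) contain a match, on either strand, while 10.8% of all 27305 windows of that length do. RELB and NFKBIE have no window there. The AP-1 letters TGANTCA were in 0 of the 8 windows and in 7.76% of all. Capitals mark the match, and each stretch reads 5′ to 3′ along the strand of its gene.
NFKBIA (chr14:35404796-35404855, minus strand, match from base -81): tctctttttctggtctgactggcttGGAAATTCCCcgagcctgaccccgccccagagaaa
TNFAIP3 (chr6:137867167-137867238, plus strand, matches from -67 and -55): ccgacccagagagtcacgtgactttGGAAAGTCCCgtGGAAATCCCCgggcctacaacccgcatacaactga
BIRC3 (chr11:102317260-102317383, plus strand, matches from -199 and -135): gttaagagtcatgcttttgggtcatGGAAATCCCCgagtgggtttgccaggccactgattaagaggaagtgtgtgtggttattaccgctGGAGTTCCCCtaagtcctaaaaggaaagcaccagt
NFKBIZ (chr3:101827742-101827801, plus strand, match from -223): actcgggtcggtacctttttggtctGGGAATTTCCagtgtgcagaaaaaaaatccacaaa
REL (chr2:60881502-60881562, plus strand, overlapping matches on both strands from -47): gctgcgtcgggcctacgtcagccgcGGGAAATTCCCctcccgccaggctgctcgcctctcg
NFKB1 (chr4:102501285-102501344, plus strand, match from -49): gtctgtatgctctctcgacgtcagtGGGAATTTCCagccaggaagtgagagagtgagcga
The window of TNFAIP3 is counted from a start inside the gene's annotated span, which begins at 137866349, so its stretch lies within that span. The windows of NFKB2 and RELA held no match. A match describes letters only; no binding was measured in these cells.

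Levels are given as log2 of the scanner's processed signal relative to the array's 75th percentile, so that 0 is the brightness of that percentile, and they are set only against other arrays of the same time and the same probe. The share of spots well above background ran from 65.7% to 76.9% over the arrays. The member probes were well above background on all 72 arrays, except that of BIRC3, which was on 71. All 11 fibroblast markers (COL1A1, COL1A2, COL3A1, VIM, FN1, DCN, LUM, PDGFRB, THY1, FAP and S100A4) were well above background on 72 of 72 arrays. The defining markers PTPRC of leukocytes, LYZ of macrophages and CDH1 of epithelium were above background on 0 arrays, KRT5 on 1, PECAM1 of endothelium on 2 and CDH5 on 12. Of the broader lists, 3 of 6 epithelial, 3 of 5 endothelial and 4 of 7 leukocyte markers were above background on over 90% of arrays, among them TEK, CD68 and MUC1.

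Several arrays stood apart from the others of their group. At 24 h, 119 probes were over 4-fold higher in all 3 arrays of experiment 3, the control included, than in the median of the other experiments of that group, and 11 were over 4-fold lower. In the 23 other sets of 3 arrays these numbers did not pass 18 and 61. Both were reached by experiment 4 at 0.5 h, as numbered in the scanner files. Experiment 4 at 24 h had 13 higher and 47 lower. In neither of these sets was a member among the probes. Of the 10 members, 5 were among the 119: BIRC3, NFKB1, NFKBIZ, RELB and TNFAIP3. In the controls at 24 h the level of BIRC3 was -4.72, -4.18, 1.27 and -4.60 in experiments 1 to 4, that is 58.5-fold higher in experiment 3. TNFAIP3, with -1.32, -1.32, 2.41 and -2.64, was 13.3-fold higher there, NFKBIZ 11.9-fold, RELB 5.64-fold, NFKB1 5.59-fold and NFKBIA 2.76-fold, whereas RELA was 1.68-fold higher. CXCL8, IL1A and PTGS2, which encode a neutrophil-attracting chemokine, an interleukin-1 and the inducible cyclooxygenase, were 39.1-fold, 37.8-fold and 23.9-fold higher in that control. The control of experiment 2 at 24 h differed in another way, with 1236 probes over 4-fold from its group's median, 1125 of them lower. The 3 arrays of experiment 3 were not raised equally: NFKB1 stood above the median of the others by 3.75 in irradiated, 3.84 in bystander and 2.48 in control cells on the log2 scale. Its irradiated ratio to control at 24 h was 0.91 in experiment 3, against -0.36, -0.06 and -0.89 in experiments 1, 2 and 4.

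The controls also differed between experiments at 1 h. TNFAIP3 was at 1.47, 1.31, -0.71 and -1.33 in the controls of experiments 1 to 4, against 1.50, 1.45, 0.23 and 0.55 in irradiated cells and 1.40, 1.18, -0.02 and 0.58 in bystander cells. In experiments 1 and 2 the control lay between the treated arrays, and in experiments 3 and 4 it lay below both. BIRC3 gave control levels of -2.60, -2.46, -4.43 and -4.63 and irradiated levels of -2.33, -2.43, -3.46 and -1.95, the same picture. The controls of experiments 1 and 2 shared a slide, and those of experiments 3 and 4 lay on 2 others. The difference between these experiments and the part of the slide in it were not tested.

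**Figure D1:**
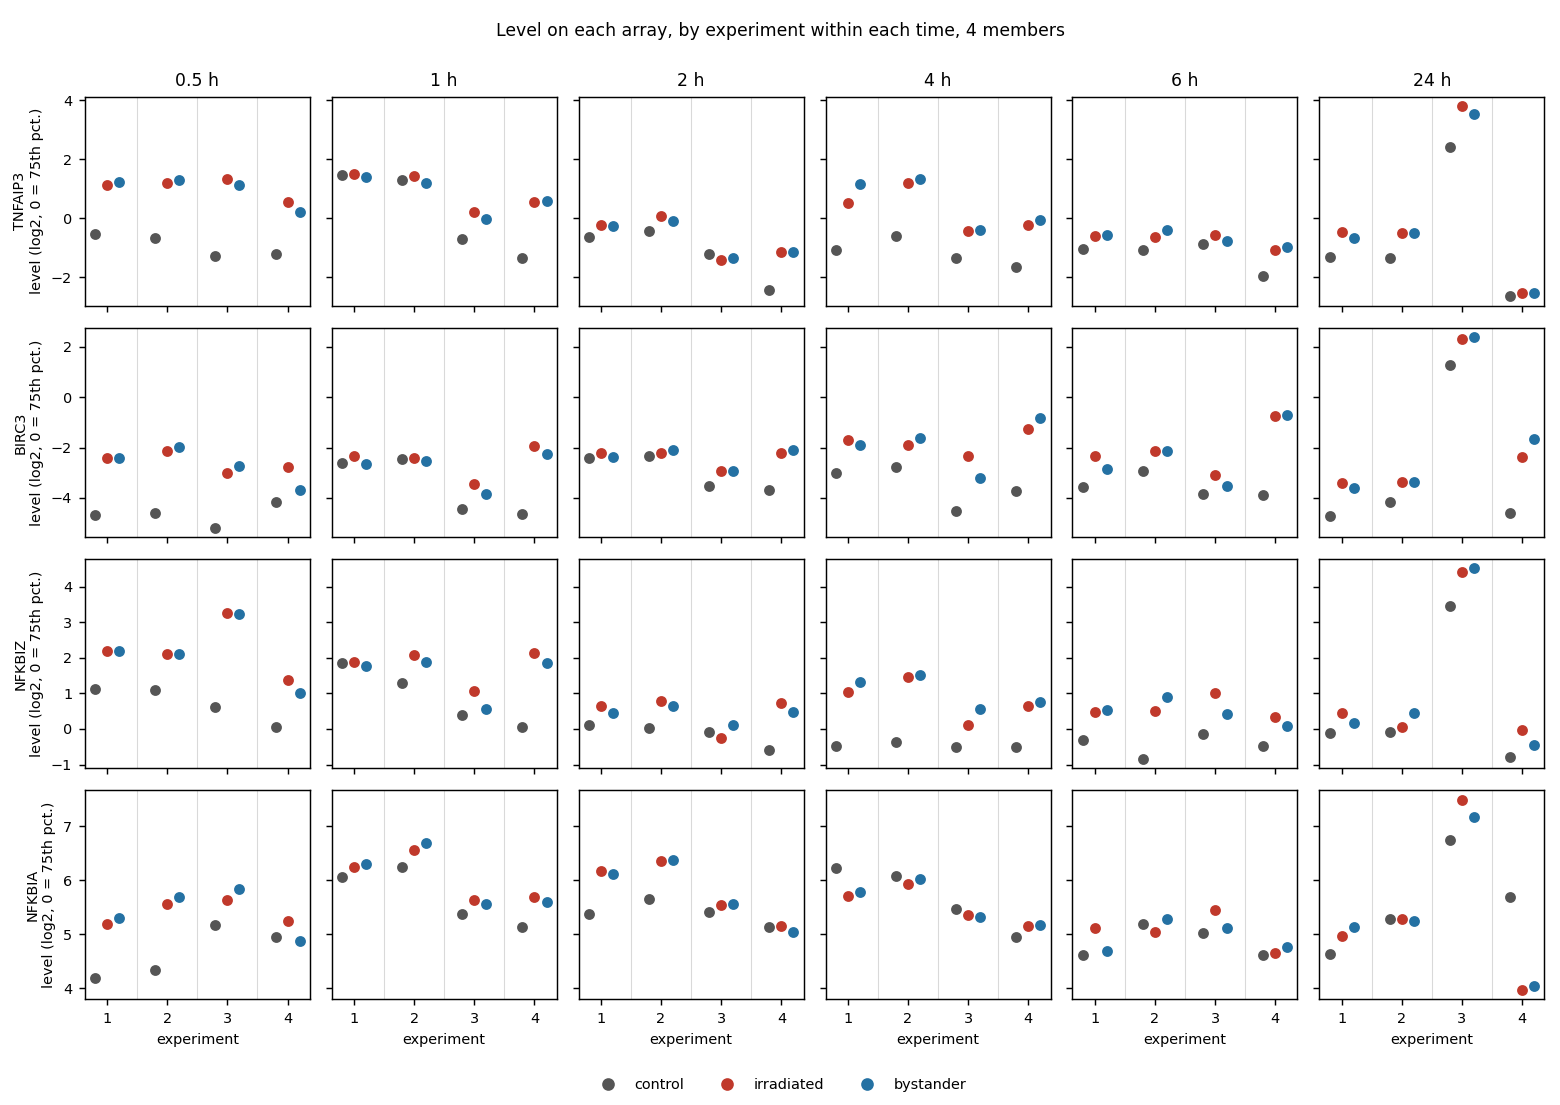
Level of TNFAIP3, BIRC3, NFKBIZ and NFKBIA on each of the 72 arrays (vertical axis, log2 with 0 at the array's 75th percentile), by experiment (horizontal axis) within each time (columns); grey is control, red irradiated, blue bystander. At 24 h the 3 arrays of experiment 3 sit above the others for all 4 genes, and at 1 h the TNFAIP3 controls of experiments 1 and 2 (1.47 and 1.31) sit at the level of the treated arrays.

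At 0.5 h both treated groups carried more mRNA of most feedback genes. Of the 11 probes, 8 were called higher in irradiated than in control cells and 0 lower, where 10.3% of all 25238 probes were called in either direction (limma with the experiment as block, Benjamini-Hochberg adjusted p below 0.10). In bystander cells 8 of 11 were called higher and 0 lower, against 6.98% of all probes. In RNA from whole cultures, a change in the share of cells that express a gene and a change in the amount per cell cannot be told apart. The 2 comparisons share their control arrays, so their values are given side by side and not as independent results. In each, the probes called were those of BIRC3, NFKB2, NFKBIA, NFKBIZ, REL, RELB and both of TNFAIP3. Both counts rested on few arrays: without experiment 1 they were 5 and 1 (2.31% and 0.0158% of all probes), and without experiment 2 they were 0 and 0, a setting in which 0 of all probes were called in either comparison. The deposited value table numbers experiments 3 and 4 the other way round at 0.5 h, and which numbering is right is not known; pairs within 0.5 h are the same in both.

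Some markers of cell types were also called, at 0.5 h and later. At 0.5 h, 10.3% of all probes were called in irradiated and 6.98% in bystander cells. Of the 11 fibroblast markers, 0 at 0.5 h were called higher and 1 lower in irradiated cells, THY1 at -1.05 (adjusted p = 0.0436, limma), and 2 lower in bystander cells, THY1 at -1.09 and PDGFRB at -0.73 (adjusted p = 0.0439 and 0.0976, limma). The median log2 ratio of the list was -0.35 and -0.41. Its summed level, in multiples of the array's 75th percentile, was 967, 871, 1329 and 1062 in controls, 816, 845, 744 and 802 in irradiated and 810, 734, 644 and 984 in bystander cells, with COL1A2 the most abundant. The irradiated arrays lay below all controls, and 1 bystander array lay among them. Of 3 tested leukocyte markers 1 was called higher, CD68, a lysosomal protein that is most abundant in that list, at 0.57 and 0.56 (adjusted p = 0.0367 and 0.0381, limma), while CD14 had -0.04 and 0.04 and PTPRC and LYZ were above background on 0 arrays. The summed level of these 3 ran from 0.536 to 0.705 in controls, from 0.673 to 1.01 in irradiated and from 0.685 to 0.953 in bystander cells. Of 3 epithelial markers MUC1 fell in bystander cells (-0.54, adjusted p = 0.0682, limma). Their summed level ran from 0.91 to 1.32 in controls, from 0.806 to 0.859 in irradiated and from 0.693 to 0.973 in bystander cells. Of 3 endothelial markers 0 were called. At the later times the fibroblast markers called were FAP, higher, and PDGFRB, lower, in irradiated cells at 2 h (0.45 and -0.59, adjusted p = 0.0374 and 0.0931, limma) and 6 h (0.84 and -0.92, adjusted p = 0.0187 and 0.0367, limma), with CD68 higher there at 6 h (0.55, adjusted p = 0.0718, limma). In irradiated cells 6.14% of all probes were called at 2 h and 10.7% at 6 h. At 1, 4 and 24 h, and in bystander cells after 0.5 h, 0 markers of the 4 lists were called. The median of the fibroblast list ran from -0.61 to -0.17 over these 5 times in both exposures, and was -0.38 and -0.40 at 4 h. Its summed level at 4 h ran from 758 to 1230 in controls, from 651 to 927 in irradiated and from 682 to 811 in bystander cells, and that of the leukocyte list at 6 h from 0.614 to 0.764 in controls, from 0.831 to 1.15 in irradiated and from 0.764 to 1.05 in bystander cells. At 24 h the leukocyte sum was 0.651 to 0.821 in controls, 0.945 to 1.12 in irradiated and 0.819 to 1.05 in bystander cells. For the epithelial list, irradiated sums lay below all controls at 1 and 6 h, and bystander sums did at 4 h. In the other comparisons after 0.5 h the epithelial ranges overlapped. The part of these differences in the member ratios was not tested.

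TNFAIP3 encodes a ubiquitin-editing enzyme that shuts the pathway off upstream of the kinase complex. Its level at 0.5 h was -0.53, -0.66, -1.29 and -1.19 in controls, 1.13, 1.20, 1.34 and 0.57 in irradiated cells and 1.22, 1.29, 1.14 and 0.20 in bystander cells. The lowest treated array lay above the highest control. The log2 ratio to control was 1.98 ± 0.44 (SD of 4 within-experiment ratios, n = 4), or 3.94-fold, in irradiated cells (adjusted p = 0.0049, limma) and 1.88 ± 0.43, or 3.68-fold, in bystander cells (adjusted p = 0.0041, limma).

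BIRC3 encodes an inhibitor of apoptosis that is also a ubiquitin ligase of the receptor complexes. Its controls were at -4.67, -4.59, -5.18 and -4.15, its irradiated arrays at -2.40, -2.12, -3.01 and -2.77 and its bystander arrays at -2.41, -1.97, -2.74 and -3.69, without overlap. The control of experiment 3, the lowest, was the 1 array on which BIRC3 was not well above background, so 3 of 4 controls measured it. With that array included, the ratio was 2.07 ± 0.48 in irradiated cells (about 4.20-fold, adjusted p = 0.0214, limma). In bystander cells it was 1.95 ± 1.00 (about 3.86-fold, adjusted p = 0.0197, limma), where experiment 4 gave 0.46. These folds are approximate, because 1 control was not measured above background. Over 13 other ways of processing, the ratio ran from 1.25 to 2.30 in irradiated and from 1.72 to 2.44 in bystander cells.

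NFKBIZ encodes a nuclear IkB protein that acts as a cofactor at secondary response genes. Its levels were 1.12, 1.10, 0.62 and 0.06 in controls, 2.20, 2.11, 3.25 and 1.39 in irradiated and 2.19, 2.12, 3.22 and 1.01 in bystander cells; the bystander array of experiment 4 overlapped the controls. The ratios were 1.51 ± 0.76 and 1.41 ± 0.80 (adjusted p = 0.028 and 0.0304, limma).

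NFKBIA, the gene of the principal cytoplasmic inhibitor, was at 4.20, 4.35, 5.17 and 4.95 in controls, 5.19, 5.56, 5.63 and 5.25 in irradiated and 5.31, 5.68, 5.84 and 4.87 in bystander cells. The irradiated arrays lay just above all controls, and the bystander array of experiment 4 lay among them. The ratios of 0.74 ± 0.43 and 0.76 ± 0.62 (adjusted p = 0.0742 and 0.0795, limma) were smaller than those of TNFAIP3, and 3 of 4 bystander cultures were higher than their control. NFKBIE, a further cytoplasmic inhibitor, had ratios of 0.34 ± 0.21 and 0.40 ± 0.29 that missed the threshold (adjusted p = 0.13 and 0.115, limma).

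Among the subunits, REL, RELB and NFKB2 rose. REL was at -3.59, -3.56, -4.08 and -3.58 in controls, -2.65, -2.79, -1.84 and -2.49 in irradiated and -2.50, -2.21, -2.44 and -2.86 in bystander cells, without overlap. Its ratios were 1.26 ± 0.66 and 1.20 ± 0.39 (adjusted p = 0.0317 and 0.036, limma). RELB, with controls at 2.77, 2.95, 3.46 and 3.50, irradiated arrays at 3.75, 4.20, 4.02 and 4.06 and bystander arrays at 3.79, 4.33, 4.34 and 3.83, also showed no overlap, at ratios of 0.84 ± 0.34 and 0.91 ± 0.44 (adjusted p = 0.0343 and 0.03, limma). NFKB2 had ratios of 0.49 ± 0.14, at the very edge of the threshold (adjusted p = 0.0998, limma), and 0.72 ± 0.35 (adjusted p = 0.0475, limma). Its irradiated call held in 4 of 14 other ways of processing and its bystander call in 7. The irradiated call was lost on leaving out any 1 experiment and with the deposited value table. NFKB1 had ratios of 0.39 ± 0.23 and 0.41 ± 0.31, just short of the threshold (adjusted p = 0.105 and 0.107, limma). RELA, the main activating subunit, gave -0.36 ± 0.31 and -0.41 ± 0.23, lower in 4 of 4 experiments in each treated group without being called (adjusted p = 0.145 and 0.134, limma).

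**Figure D2:**
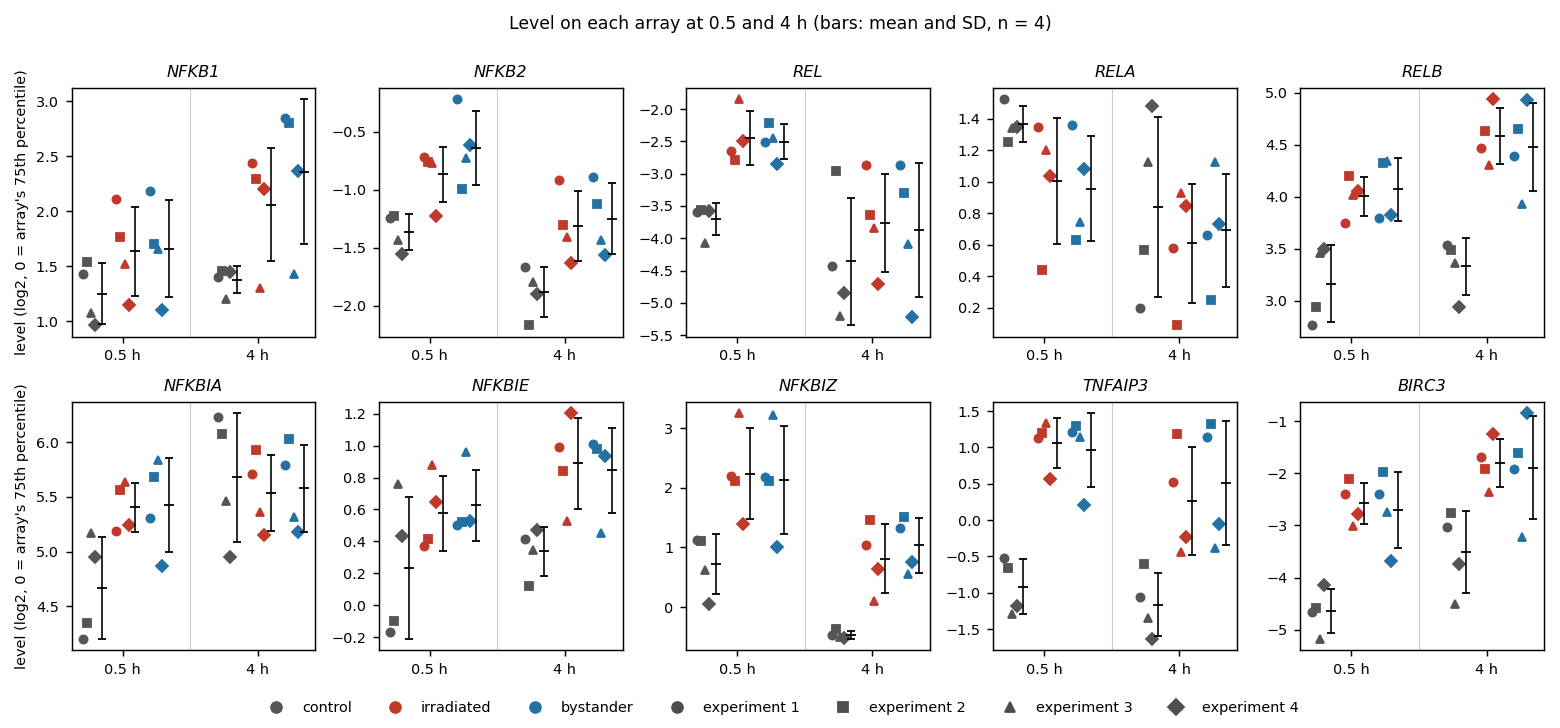
Level of each member on every array at 0.5 and 4 h (vertical axes, log2 with 0 at the array's 75th percentile, each gene on its own scale); symbols are experiments, colours are groups, bars are mean and SD of 4 arrays. At 0.5 h the TNFAIP3, BIRC3, REL, RELB and NFKB2 arrays of both treated groups lie above all 4 controls, for NFKB2 in irradiated cells only just. Most treated arrays of RELA lie below its controls.

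At 1 h no member was called. All 25238 probes gave 0 calls in each comparison with control (0%), while 6667 irradiated and 3636 bystander comparisons, 26.4% and 14.4%, had an unadjusted p below 0.05 in limma. Of the 11 member probes, 5 and 2 had an unadjusted p below 0.05. The experiments disagreed: the TNFAIP3 ratio in irradiated cells was 0.75 ± 0.86 and that of BIRC3 was 0.99 ± 1.20, with the control levels described above.

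At 2 h, 3 of 11 probes were called higher and 0 lower in irradiated cells, where 6.14% of all probes were called: NFKB1 at 0.49 ± 0.29, RELB at 0.56 ± 0.44 and NFKBIE at 0.48 ± 0.06 (adjusted p = 0.093, 0.0746 and 0.0238, limma). NFKBIE was at 0.85, 0.90, 0.77 and 0.95 in controls and 1.37, 1.43, 1.19 and 1.39 in irradiated cells, a small shift that all 4 experiments showed almost alike. In bystander cells 0 were called, where 0.230% of all probes were, and 9 of the 11 had an unadjusted p below 0.05, as did 15.8% of all probes; NFKBIE there had 0.42 ± 0.08 (adjusted p = 0.1, limma). Without experiment 1, 2 or 3 the irradiated count was 0 each time, where 0.103%, 0.0951% and 0.238% of all probes were called. Without experiment 4 it was 6, with 5 in bystander cells, in a setting that called 19.4% and 12% of all probes. In 1 fit to all 72 arrays the irradiated count at 2 h was 1, where 63 of all probes were called. It was also 1 without scaling between arrays and 1 with normexp background correction, where 6912 and 530 were called. Of 14 alternatives, 3 kept the call of NFKB1, 4 that of RELB and 7 that of NFKBIE. The lowest ratios among them were 0.09, 0.17 and 0.08.

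By 4 h a further set of higher values was measured, without NFKBIA. In irradiated cells 5 of 11 probes were called, all higher, against 1.18% of all probes, and in bystander cells 6 of 11, all higher, against 0.618%. TNFAIP3 was at -1.07, -0.61, -1.34 and -1.64 in controls, 0.52, 1.19, -0.44 and -0.24 in irradiated and 1.15, 1.32, -0.38 and -0.06 in bystander cells, with no overlap. Its ratios were 1.42 ± 0.38 and 1.67 ± 0.54 (adjusted p = 0.0106 and 0.00502, limma). NFKBIZ, at -0.47, -0.36, -0.51 and -0.51 in controls, 1.04, 1.46, 0.10 and 0.63 in irradiated and 1.33, 1.52, 0.56 and 0.75 in bystander cells, had the tightest controls and ratios of 1.27 ± 0.52 and 1.50 ± 0.40 (adjusted p = 0.0164 and 0.00718, limma).

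BIRC3 had ratios of 1.71 ± 0.76 and 1.61 ± 0.86 at 4 h (adjusted p = 0.0367 and 0.0656, limma), and the bystander array of experiment 3, at -3.22, overlapped controls of -3.03, -2.75, -4.51 and -3.74. RELB reached 1.25 ± 0.51 and 1.14 ± 0.62 (adjusted p = 0.0249 and 0.0545, limma), with controls at 3.54, 3.49, 3.37 and 2.94 and treated arrays from 3.93 to 4.94. NFKB1 rose in bystander cells, at 0.98 ± 0.55 (adjusted p = 0.0669, limma); in irradiated cells it had 0.68 ± 0.40 (adjusted p = 0.164, limma), and the difference between the groups is given below with its interval. NFKBIA, by contrast, was at 6.23, 6.08, 5.46 and 4.95 in controls, 5.71, 5.93, 5.36 and 5.15 in irradiated and 5.79, 6.03, 5.32 and 5.18 in bystander cells, and in each exposure 3 of 4 cultures were below their control. Its ratios were -0.14 ± 0.30 and -0.10 ± 0.28 (adjusted p = 0.659 and 0.747, limma). Without experiment 1 the counts at 4 h were 0 and 0 (0.0911% and 0.0555% of all probes), without experiment 2 they were 4 and 0 (1.58% and 0.0396%), and without experiment 4 they were 4 and 3 (0.535% and 0.333%).

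At 6 h, 5 of 11 probes were called in irradiated cells, 4 higher and 1 lower, against 10.7% of all probes. BIRC3 had 1.48 ± 1.13, NFKBIZ 1.03 ± 0.27, RELB 0.96 ± 0.55 and NFKBIE 0.49 ± 0.27 (adjusted p = 0.0701, 0.0322, 0.0483 and 0.0949, limma). RELA was the member that fell: 0.49, 0.20, 0.72 and 0.48 in irradiated cells against 0.85, 0.39, 1.53 and 1.27 in controls, a ratio of -0.54 ± 0.31 (adjusted p = 0.0767, limma), with 3 irradiated arrays inside the range of the controls. In bystander cells 0 were called, where 0.277% of all probes were, and 4 of the 11 had an unadjusted p below 0.05, as did 14.3% of all probes. NFKBIZ there had 0.93 ± 0.55 and RELB 0.80 ± 0.61 (adjusted p = 0.145 and 0.215, limma). In 1 fit to all 72 arrays 3 were called in bystander cells, where 1762 of all probes were. The irradiated count was 1 without experiment 1, 2 without experiment 2 and 0 without experiment 4 (2.36%, 5.05% and 0.824% of all probes), whose BIRC3 ratio of 3.15 was the highest of the 4.

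After 24 h no member was called in irradiated or bystander cells, where 0.166% and 0.0198% of all probes were, and 6 of 11 probes had an unadjusted p below 0.05 in limma in each, as did 13.2% and 11.1% of all probes. In 1 fit to all 72 arrays, 5 and 3 member probes were called at 24 h, where 1784 and 942 of all probes were. BIRC3 had ratios of 1.34 ± 0.62 and 1.49 ± 0.97 (adjusted p = 0.188 and 0.287, limma) and TNFAIP3 of 0.80 ± 0.52 and 0.68 ± 0.42 (adjusted p = 0.191 and 0.349, limma), higher than control in 4 of 4 experiments. In experiment 3, where the levels of all 3 arrays were high, the BIRC3 ratio was 1.03 in irradiated cells and the TNFAIP3 ratio 1.39. NFKBIA gave -0.16 ± 1.08 and -0.19 ± 0.99, with experiment 4 apart, where the control at 5.68 stood above treated arrays at 3.97 and 4.05.

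**Figure D3:**
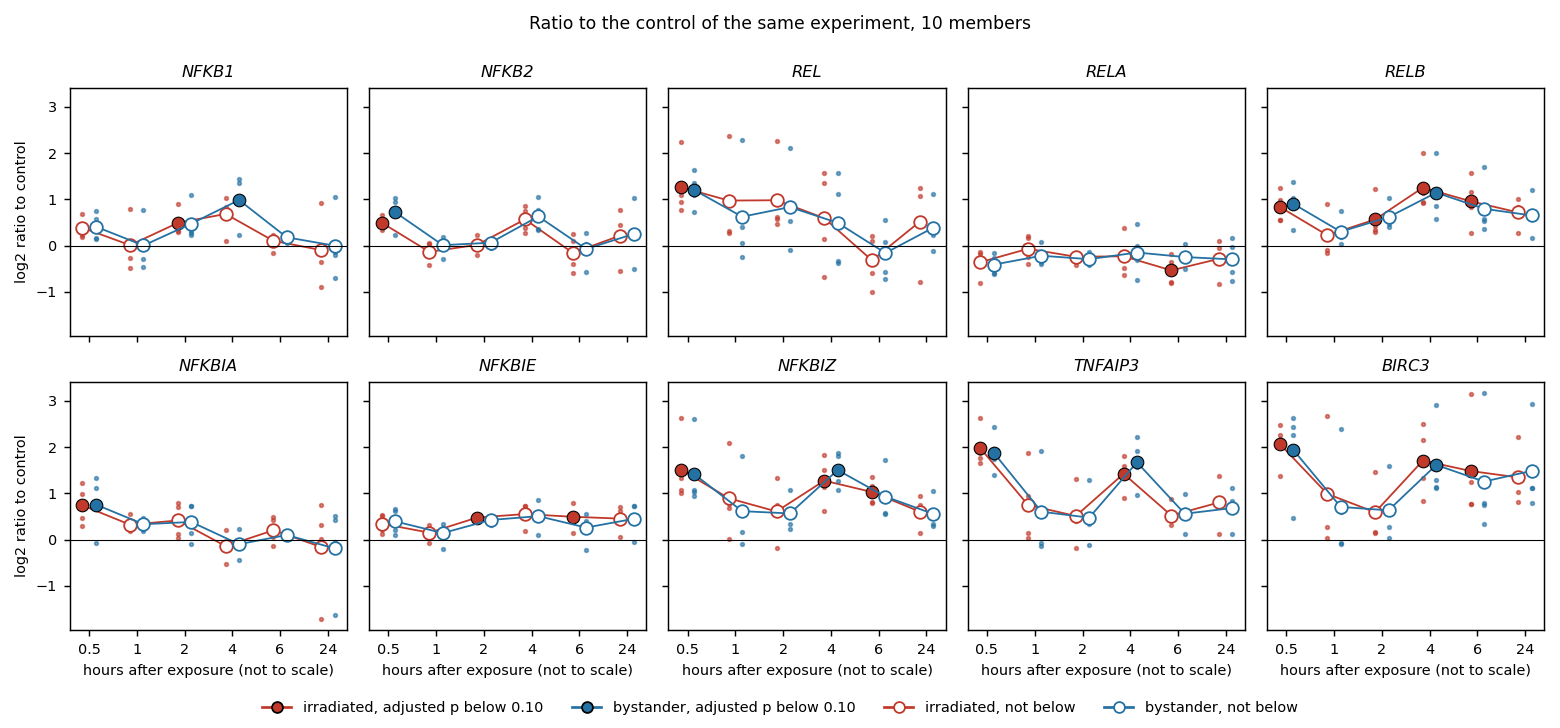
Log2 ratio to the control of the same experiment (vertical axis) for each member over time (horizontal axis, hours, not to scale); small dots are the 4 experiments, circles their fitted mean joined by lines, red irradiated and blue bystander, filled where the adjusted p was below 0.10. The means of TNFAIP3 and NFKBIZ are highest at 0.5 and 4 h and that of NFKBIA at 0.5 h, though no change between adjacent times was called. Those of RELA lie below 0 throughout, called only in irradiated cells at 6 h.

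The direct test of irradiated against bystander cells called 0 of 11 member probes at each time, and 0 of the 60 differences between main probes had an unadjusted p below 0.05 (limma, adjusted p from 0.93 to 1). Over the whole array it called 0.0436% of probes at 2 h and 0% at the other times. The 60 differences ran from -0.30 to 0.35 on the log2 scale. For TNFAIP3 the difference was 0.10 at 0.5 h (95% interval -0.29 to 0.48) and -0.25 at 4 h (-0.67 to 0.18), and for NFKBIA at 0.5 h it was -0.02 (-0.47 to 0.44). For NFKB1 at 4 h it was -0.30 (-0.71 to 0.11) and for RELA at 6 h -0.29 (-0.62 to 0.05). The half-width of the 60 intervals ran from 0.17 to 0.88 with a median of 0.42, widest for BIRC3 at 6 h. These intervals are unadjusted, so a difference larger than a half-width could still miss the adjusted threshold. With 4 arrays a group, true differences inside the intervals may have gone undetected. A call in 1 exposure and not in the other, as at 2 and 6 h, is therefore no sign that they differed.

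**Figure D4:**
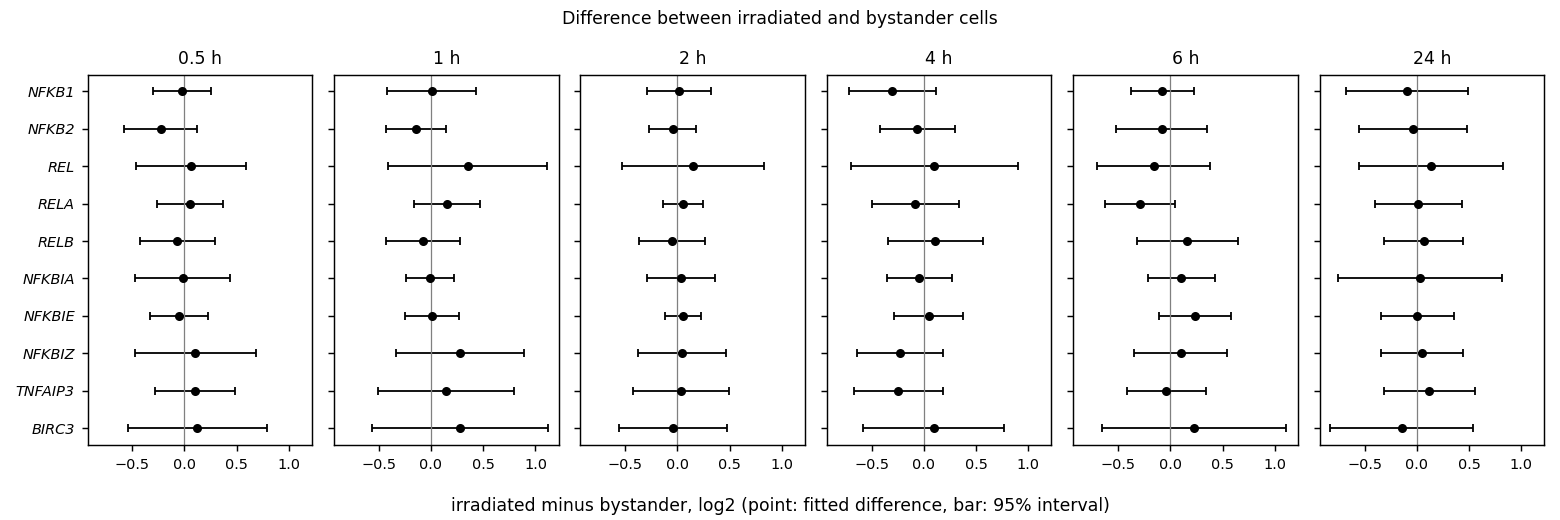
Irradiated minus bystander (horizontal axis, log2) for each member (rows) at each time (panels); points are fitted differences and bars 95% intervals. The 60 points lie between -0.30 and 0.35, and every interval spans 0.

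Whether a ratio changed from 1 time to the next was tested in 1 fit of all arrays. Of 110 such changes of member probes (55 irradiated, 55 bystander) 0 were called, 14 and 14 of them had an unadjusted p below 0.05, beside 4.26% and 2.58% of the same changes over all probes, and the lowest adjusted p was 0.728 and 0.988 (limma). Over all probes 0% were called between adjacent times, other than 0.00396% in irradiated and 0.00792% in bystander cells from 6 to 24 h. The BIRC3 ratio in bystander cells changed by -1.24 ± 0.54 (SE) from 0.5 to 1 h and by 0.98 ± 0.54 (SE) from 2 to 4 h, neither called. That of TNFAIP3 changed by -1.28 ± 0.32 (SE) and by 1.20 ± 0.32 (SE) over the same steps, also not called. Without experiment 4, in a setting that called 0.353% and 0.416% of all probes from 0.5 to 1 h, 6 changes from 0.5 to 1 h were called, those of TNFAIP3 (-1.68 irradiated, -1.88 bystander), BIRC3 (-1.88 and -2.30) and RELB (-0.93 and -0.95), and TNFAIP3 was called higher from 2 to 4 h in bystander cells (1.50, adjusted p = 0.07, limma, where 0.0436% of all probes were called). These calls from 0.5 to 1 h depended on the numbering: with the 0.5 h numbers of experiments 3 and 4 exchanged, as in the value table, 1 of the 6 was called, TNFAIP3 in bystander cells (-1.53, adjusted p = 0.0331, limma), where 0.00792% of all probes were.

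The second probe of TNFAIP3 was called at the same times as the main one. Its ratios at 0.5 h were 1.39 ± 0.36 and 1.59 ± 0.56, and at 4 h 1.36 ± 0.75 and 1.77 ± 0.71 in irradiated and bystander cells (adjusted p from 0.0149 to 0.0527, limma). At 0.5 h the irradiated and control arrays of experiment 2 sat on different slides, and the same held for the bystander and control arrays of experiments 2 and 4; at the other times it was experiments 2 and 3 for bystander cells. Over the pairs that shared a slide at 0.5 h, the TNFAIP3 ratio was 2.01 in irradiated (3 pairs) and 2.09 in bystander cells (2 pairs, experiments 1 and 3), and that of NFKBIA was 0.58 and 0.89.

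The other genes of the pathway are given list by list, targets and ligands first. Of 26 tested cytokine, chemokine and adhesion targets, 14 rose and 2 fell in irradiated cells at 0.5 h and 13 rose and 1 fell in bystander cells, with medians of 0.80 and 0.78 beside -0.00408 and 0.0113 over all probes. At 4 h 10 rose and 1 fell in each, where 1.18% of all probes were called in irradiated and 0.618% in bystander cells, and at 6 h 13 and 5 rose, where 10.7% and 0.277% were. CXCL8 had ratios of 3.56 ± 1.59 and 3.60 ± 1.97 at 0.5 h (adjusted p = 0.0249 and 0.0215, limma), MMP3, a matrix metalloprotease, 2.95 ± 0.71 and 2.67 ± 1.62, and PTGS2 2.63 ± 0.59 and 2.73 ± 0.86. Of 6 tested ligands 3 rose at 0.5 h (10.3% and 6.98% of all probes called) and 3 at 4 h (1.18% and 0.618%) in each exposure: IL33, an alarmin, had 2.55 ± 0.38 and 2.36 ± 0.45 at 4 h (adjusted p = 0.0016 and 0.0018, limma), IL1A 1.86 ± 0.83 and 1.99 ± 0.70, and IL1B 1.62 ± 0.97 and 1.87 ± 1.00. Of 11 survival and stress targets 5 rose at 0.5 h in each; SOD2, the mitochondrial superoxide dismutase, had 1.26 ± 0.54 and 1.30 ± 0.65 and was called at 0.5, 4 and 6 h in both.

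Of 14 other negative regulators 4 rose and 1 fell in irradiated cells at 0.5 h, and 3 rose and 1 fell in bystander cells. ZC3H12A, an RNase that degrades cytokine mRNAs, had 1.42 ± 0.51 and 1.42 ± 0.65, TANK 0.42 ± 0.12 and 0.46 ± 0.29, and PDLIM2, a ligase for nuclear RELA, fell at -0.75 ± 0.48 and -0.81 ± 0.52. Among 26 kinases and adaptors 6 rose and 2 fell in irradiated and 5 rose and 1 fell in bystander cells at 0.5 h; RIPK2 rose (0.65 ± 0.18 and 0.63 ± 0.37), as did MAP3K8 (0.96 ± 0.53 and 1.00 ± 0.64), and MYD88, the adaptor of the interleukin-1 and Toll-like receptors, fell (-0.51 ± 0.24 and -0.53 ± 0.30). Of 6 tested receptors 1, TNFRSF1A, fell in irradiated cells at 0.5 h (-0.49 ± 0.25, adjusted p = 0.0891, limma), and TNFRSF12A rose at 2 h (0.59 ± 0.43). The other IkB-type genes tested, BCL3 and NFKBIB, were called in 0 of the 12 comparisons. The shares of all probes called beside these lists were 10.3% and 6.98% at 0.5 h, and 6.14% in irradiated cells at 2 h.

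**Figure D5:**
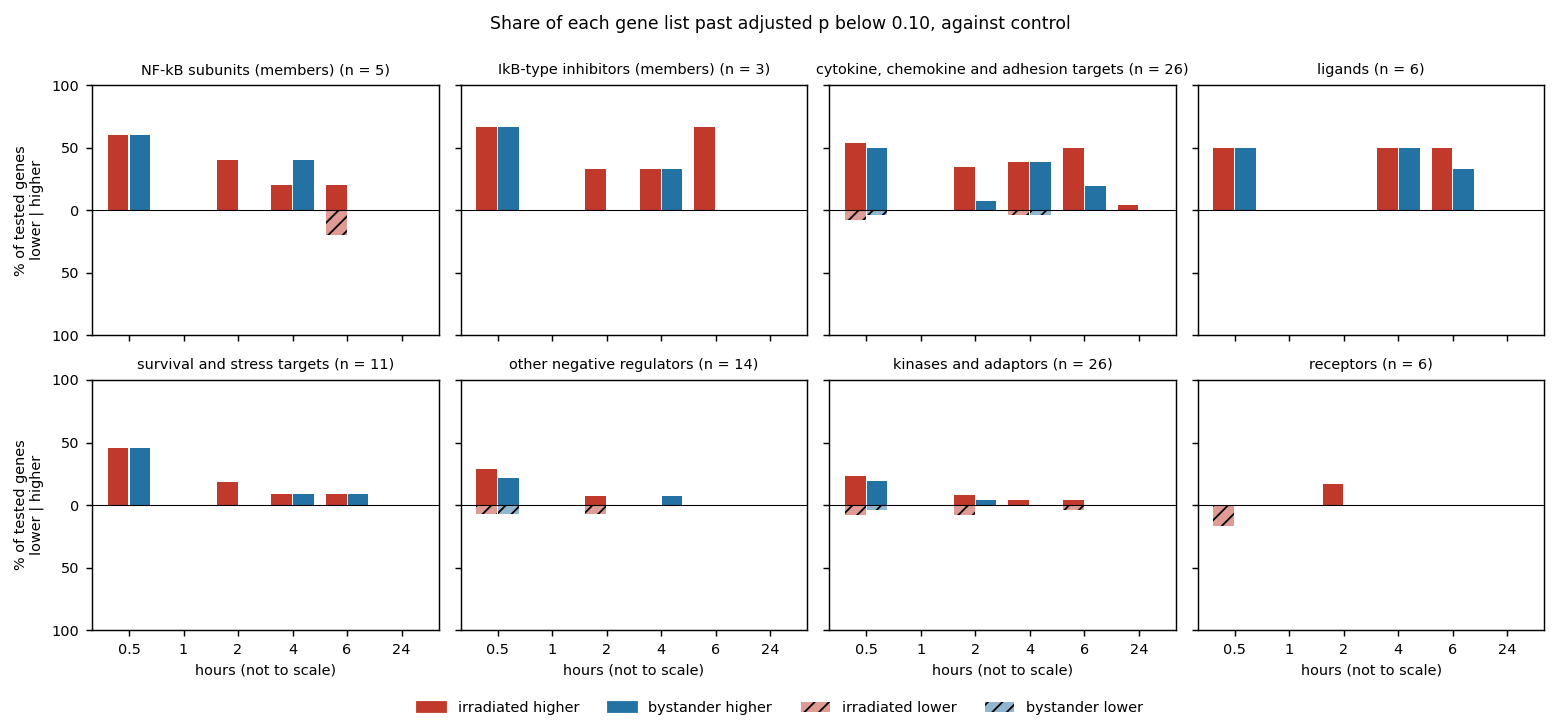
Percent of the tested genes of each list called higher (upward bars) or lower (hatched, downward bars) than control at each time (horizontal axis, hours, not to scale); red is irradiated, blue bystander, n is the number of genes tested. Ligands were called at 0.5, 4 and 6 h, targets also at 2 h and, for 1 gene in irradiated cells, at 24 h, and all bars are empty at 1 h.

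Across the 48 within-experiment ratios (24 irradiated and 24 bystander, which share controls, slides and scaling), the member pair that ran most alike was NFKBIZ and TNFAIP3 (Pearson's r = 0.80), followed by BIRC3 and RELB (0.67) and NFKB1 and TNFAIP3 (0.67). NFKBIA had 0.26 with TNFAIP3 and 0.08 with NFKBIZ, and RELA had -0.34 with BIRC3 and with RELB. Outside the members, the 5 genes whose ratios ran most like those of TNFAIP3 were GCH1 (0.83), SLC39A8 (0.82), G0S2 (0.80), CXCL2 (0.79) and DUSP2 (0.78), which encode an enzyme of tetrahydrobiopterin synthesis, a metal-ion importer, a lipase inhibitor, a chemokine and a phosphatase of MAP kinases. Those most like NFKBIA were NFIL3 (0.80), PIM3 (0.78), KLHL21 (0.77), MTHFS (0.72) and RSPO3 (0.71), of which the first encodes a transcriptional repressor and the next a kinase. The 2 sets have no gene in common. These values describe the ratios and were not tested.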

How the data were processed

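The 72 Agilent one-colour whole-genome arrays (3 treatments, 6 times, 4 experiments, on 18 slides) were used. The methods call the 4 experiments independent biological replicates. The authors scanned them with Feature Extraction 9.1.3.1, and the deposited files hold spot intensity values (processed signal, already background-corrected). Their deposited value table holds log2 values of the same spots, not scaled between arrays; at 0.5 h its columns of experiments 3 and 4 hold each other's arrays in all 3 groups, so those numbers follow the scanner files here, and which is right is not known. Spots of a probe were averaged, and the average was scaled to the array's 75th percentile, floored at 5 and taken to log2. Probes dim or non-uniform on over 10% of arrays were left out. Each time was fitted on its own with limma 3.58.1 (R 4.3.3), with treatment and experiment (block), eBayes with trend, and Benjamini-Hochberg over 25238 probes at adjusted p below 0.10. The sources state that the groups of an experiment came from 1 pool of cells; deviations of same-numbered arrays correlated at over 0.1 in 12 of 12 pairs at 0.5, 1, 2 and 24 h and in 10 of 12 at 4 and 6 h. A gene's main probe was its brightest; of each further list up to 3 genes called most often were named, and 5 genes each by correlation with NFKBIA and TNFAIP3. Members and lists were chosen with earlier results of these data known. The limited number of arrays sets the precision. Alternatives were no scaling, quantile scaling, normexp, the value table, other filters, no block, slide as a block, 1 fit of all arrays, and leaving out each experiment.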

Additional observations from a re-analysis of the deposited data

Results flagged for a closer look

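Within each of 180 groups of 4 levels (1 member, treatment and time), the highest or lowest was set against the other 3. In 21 groups it stood apart from them by more than Dixon's 95% limit allows. Chance alone gives about 1 group in 20, but groups of different members share arrays, so they are not independent. Of the 21, 10 were levels on the 3 arrays of experiment 3 at 24 h, all high: NFKB1 at 4.38 in irradiated, 4.52 in bystander and 3.47 in control cells, NFKB2 at 0.77 and 1.04 in irradiated and bystander cells, NFKBIE at 2.92 and 2.93 in the same, NFKBIZ at 4.40 in irradiated and 3.45 in control cells, and BIRC3 at 1.27 in control cells. These arrays lay on 2 slides that also carried other experiments. On 1 slide TNFAIP3 was at 3.80 and 2.41 in experiment 3 and at -0.48 and -0.49 in experiment 2, and on the other it was at 3.53 in experiment 3 and at -2.52, -2.52 and -2.64 in experiment 4. Also in experiment 3, levels were low at 2 h for NFKB1 in bystander cells (1.46) and for BIRC3 (-2.94) and NFKBIZ (-0.27) in irradiated cells, at 1 h for NFKBIZ in bystander cells (0.56), at 0.5 h for REL in control cells (-4.08) and at 4 h for NFKBIE in bystander cells (0.45), and high at 0.5 h for NFKBIE in bystander cells (0.96). In experiment 4, levels were low at 0.5 h for NFKB2 in irradiated cells (-1.22) and for TNFAIP3 in bystander cells (0.20), and at 6 h for TNFAIP3 in irradiated (-1.06) and control cells (-1.93). Each is a value of 1 array, and its cause was not tested; at 0.5 h the numbers 3 and 4 are those of the scanner files, and the value table has them exchanged. With all 4 experiments in the fit, no member passed a test of a difference between the exposures or between adjacent times. Without experiment 4, 7 changes between adjacent times did. Of all probes, 0.353% (irradiated) and 0.416% (bystander) were then called from 0.5 to 1 h, and 0.0436% from 2 to 4 h in bystander cells. With the 0.5 h numbers of experiments 3 and 4 also exchanged, 2 of the 7 were called, both of TNFAIP3 in bystander cells. There 0.00792% and 0.0317% of all probes were called.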

How the results depend on the processing

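Summed over the 6 times, with the 11 member probes tested at each, there were 21 calls in irradiated and 14 in bystander cells. A probe called at several times was counted at each. Of the tests over all probes, 4.74% and 1.35% were called. Without scaling between arrays the irradiated total was 12 (7.79% of all tests); that setting moved the median ratio of all probes by -0.40 to 0.45 on the log2 scale, and normexp moved it by -0.03 to 0.18. Without a filter on dim probes the totals were 4 and 6 (0.873% and 0.352%). Without the experiment as a block, which ignores the pairing, they were 3 and 1 (0.0594% and 0.0178%). In 1 fit of all 72 arrays the bystander total was 23 (3.24%), and with slide as a second fixed block, chosen after seeing the data, it was 6 (0.129%), so in these 4 settings the calls over all probes moved in the same direction as those of the members. Leaving out each experiment in turn gave 6 to 16 irradiated calls (0.811% to 3.74%) and 0 to 15 bystander calls (0.0066% to 2.49%), and 0 to 7 called changes between adjacent times, the 7 without experiment 4 and 2 where, chosen after seeing the data, the 0.5 h numbers of experiments 3 and 4 were also exchanged. Without experiment 4, 0.353% of irradiated and 0.416% of bystander changes over all probes were called from 0.5 to 1 h. From 2 to 4 h it was 0.0436% in bystander cells. With the exchange these shares were 0.00396%, 0.00792% and 0.0317%. Irradiated against bystander stayed at 0 calls in each of the 14 refits. No log2 ratio called in the main setting changed sign in any alternative, those of the pairs on 1 slide included. TNFAIP3 at 0.5 h kept its call in 13 of 14 alternatives in each exposure (lost without experiment 2, where the irradiated ratio was 2.01 with adjusted p = 0.177 and the bystander ratio 1.85 with adjusted p = 0.126, limma), with ratios of 1.76 to 2.08 irradiated and 1.70 to 2.04 bystander. NFKBIA at 0.5 h kept it in 6 of 14 in each, with ratios of 0.58 to 0.89 and 0.54 to 1.04. Fewer alternatives kept the irradiated calls of NFKB1 (3 of 14) and RELB (4 of 14) at 2 h. The same held for irradiated NFKB2 at 0.5 h (4 of 14) and NFKBIE at 6 h (5 of 14). The bystander call of BIRC3 at 4 h was kept in 6 of 14. The causes were not tested.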
